A study of Mus musculus with 6 samples.

Results

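The genes described here are the ubiquitin conjugating enzymes and the ubiquitin-specific proteases of mouse leukemia cells, read in cells treated with an inhibitor of the arginine methyltransferase PRMT5 and in cells treated with solvent. All genes of the deposited table whose symbol begins with Ube2 and a letter, or with Usp and a number, were taken, which gave 73 of 11644 genes. Of these, 31 carry UBE2 symbols and 42 carry USP symbols. The rule works on symbols alone, so it also took Usp6nl, a GTPase-activating protein with no protease activity, and Ube2cbp, a ubiquitin ligase-like protein that binds an E2 and is not one itself.

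The cells carry the MLL-ENL fusion and activated NrasG12D, a pair of oncogenes that together give an aggressive mouse model of acute myeloid leukemia. One group of 3 libraries (DMSO 1 to 3) came from cells given DMSO, and one group of 3 libraries (inhibitor 1 to 3) came from the same cells given 5 µM EPZ015666, a small-molecule inhibitor of PRMT5, in an equal concentration of DMSO. Treatment lasted 72 h and was repeated on day 2, and both groups share the oncogenes and the culture. Polyadenylated RNA was sequenced, and the labels call the replicates independent without saying what was repeated, so p-values measure only the spread between these libraries. The cells are a single leukemia model in culture, with no other line beside it.

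Ubiquitin is attached to proteins by a relay: an E1 enzyme activates it, an E2 enzyme (most UBE2 genes) carries it, and an E3 ligase selects the substrate, often with the E2 setting which kind of chain is built. Deubiquitinases take ubiquitin off again, and the USP genes are the largest family of them. SUMO, NEDD8 and ISG15 are small relatives of ubiquitin that run through relays of their own, and a few UBE2 genes serve them and not ubiquitin.

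Reads per library that could be recovered from the table ranged from 11335948 to 19197912. Levels below are normalized counts, that is, read counts scaled by each library's size factor. All 8 myeloid markers looked for were listed (Ptprc, Spi1, Cebpa, Kit, Mpo, Itgam, Csf1r and Fcgr3), with a summed level of 14787 to 16220 in the DMSO libraries and 22431 to 22722 in the inhibitor libraries. Of 6 markers each, 2 were listed for T cells, 1 for B cells, 1 for stroma and 0 for erythroid cells, and the defining T-cell and B-cell genes Cd3e and Cd79a were not among those listed. The myeloid markers did not move as 1 group. Itgam (1542 to 1901 in the DMSO libraries, 6269 to 6357 in the inhibitor libraries), Csf1r, Fcgr3 and Spi1 (2096 to 2205 against 2380 to 2721) were higher with the inhibitor. Cebpa (1105 to 1455 against 797 to 999) was lower, and Ptprc, Kit and Mpo overlapped. The part of the shift in myeloid markers in the results below was not tested. DMSO library 2 stands apart from DMSO libraries 1 and 3 in some genes, Usp18 among them. The members as a whole did not single it out: median log2 differences of 1 library from the others of its group ran from -0.06 (DMSO library 3) to 0.05 (DMSO library 2 and inhibitor library 1) over the UBE2 genes and from -0.04 (inhibitor library 3) to 0.07 (inhibitor library 1) over the USP genes.

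Ubiquitin conjugating enzymes moved more often up than down with the inhibitor, and ubiquitin-specific proteases more often down than up. Of the 31 UBE2 genes, 10 rose (32.3%) and 3 fell (9.68%), with a median log2 fold change of 0.13. Over the 19 UBE2 genes without a near-identical processed pseudogene copy, described further on, 3 rose and 3 fell. Among the 42 USP genes, 5 rose (11.9%) and 13 fell (31.0%), with a median of -0.13. Over all 11644 genes 23.6% rose and 22.9% fell, with a median of 0.00. Calls are at an adjusted p of 0.05 in limma, adjusted over all genes. Either family's share of genes changed in any direction, 41.9% and 42.9%, was close to the 46.5% over all genes. Whether the split by direction differs from that of the table was not tested. Counts by role, given further on, cover small lists and stand beside these same shares over all genes. Libraries of the 2 groups did not overlap for 18 UBE2 genes (58.1%) and 22 USP genes (52.4%), beside 56.0% of all genes. In bulk RNA, fewer cells of a type and less RNA per cell cannot be told apart.

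The count of USP genes that fell leans on DMSO library 3. Without DMSO library 3 it was 7 of 42 (16.7%), below the 18.5% of all genes that fell in the same setting, while 5 USP genes rose (11.9%, beside 19.5%). With any other library left out, the USP share stayed above that of all genes. It ran from 21.4% (without inhibitor library 2, beside 17.8%) to 35.7% (without inhibitor library 1, beside 22.3%). Family and gene length go together, with a median merged exon length of 7364 bases for USP genes, 4409 for UBE2 genes and 4358 for all genes. With the trend over exon length taken out of the fold changes, 13 UBE2 genes rose (41.9%) and 3 fell, and 5 USP genes rose and 10 fell (23.8%). Over all genes 24.6% then rose and 22.1% fell, so the share of USP genes that fell was near that of the table, as without DMSO library 3.

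**Figure D1:**
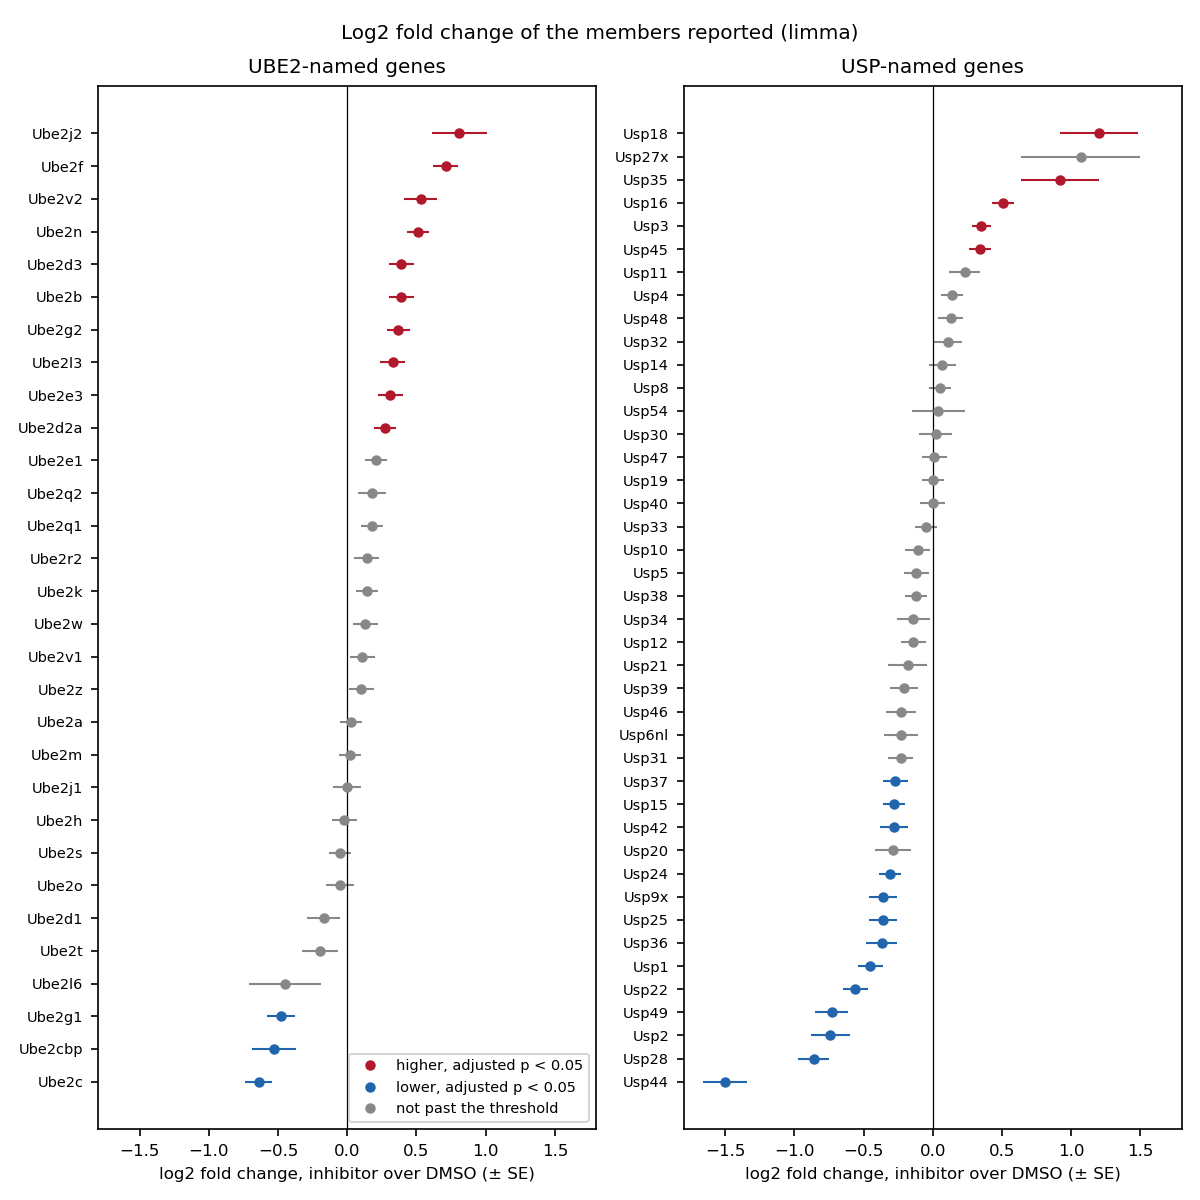
Log2 fold change (inhibitor over DMSO) of the UBE2 and USP genes reported, from limma, with bars of 1 standard error; red marks genes that rose, blue genes that fell, and grey genes not past the threshold. The UBE2 genes run from -0.64 (Ube2c) to 0.81 (Ube2j2), and the USP genes from -1.50 (Usp44) to 1.20 (Usp18).

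Sizes were modest throughout. Of the 73 members, 1 was called with a rise of at least 2-fold (Usp18) and 1 with a fall of at least 2-fold (Usp44). Of all 11644 genes, 834 were called with such a rise and 354 with such a fall. Per kilobase of merged exons, the member with the highest value in the DMSO libraries was Usp1, at 1087 normalized counts. Among the proteases Usp5 (743) and Usp8 (487) followed. Among the UBE2 genes, Ube2s (831) and Ube2m (819) stood near the top on the same scale. At the low end were Usp27x (1.11), Usp35 (3.18) and Ube2j2 (12.2), so the largest rises on the log2 scale include some of the scarcest transcripts. Merged exons cover all annotated isoforms (24499 bases for Ube2d3, 3733 for Usp1), so the order at the top depends on the annotation. Without that division, mean DMSO counts of Usp9x (6977), Ube2d3 (6161) and Ube2s (4270) exceeded that of Usp1 (4057).

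The E2 enzymes of the anaphase-promoting complex, the ligase that sends mitotic proteins to the proteasome, did not move together. Ube2c, which starts chains on the complex's substrates, measured 1636, 1390 and 1504 normalized counts in DMSO libraries 1 to 3 and 1104, 908 and 892 in inhibitor libraries 1 to 3. Every inhibitor library lay below every DMSO library. The fall was 1.56-fold (log2 fold change -0.64 ± 0.10 SE, n = 3 per group, limma adjusted p = 3.47e-04). Of the exon bases of Ube2c 22.8% lie under Tnnc2 on the other strand. Ube2s, which extends those chains, measured 4243, 4452 and 4115 in the DMSO libraries and 4168, 3900 and 4284 in the inhibitor libraries. Its groups overlapped and it was not past the threshold (limma adjusted p = 0.613). On the log2 scale the ratio of Ube2c to Ube2s went from a mean of -1.50 to -2.09, without overlap between the groups (exact permutation test, two-sided, p = 0.100, the smallest that 3 libraries against 3 can give; 0.125 adjusted over 10 ratios of related genes).

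Cdc20, the activator that brings mitotic substrates to the complex, also fell, from 2368, 2084 and 2081 in the DMSO libraries to 1738, 1439 and 1480 in the inhibitor libraries (limma adjusted p = 0.00132). Over the 16 listed genes of the complex and its activators, 3 rose (18.8%) and 4 fell (25.0%), beside 23.6% and 22.9% of all genes. The rise of Cdc26 was not called once DMSO library 2, DMSO library 3, inhibitor library 2 or inhibitor library 3 was left out. Leaving out DMSO library 1, DMSO library 3 or inhibitor library 2 ended the call of Fzr1, which fell. Of the subunits, Cdc16 fell from a mean of 1302 to 872 and Anapc5 from 10576 to 7527. Anapc10, a substrate-recognition subunit, rose from 196 to 382 and Anapc4, a scaffold subunit, from 965 to 1332. The complex as a list therefore held changes in both directions, as did the whole table.

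Promoter windows are shown for Ube2c, for Ube2f, which serves NEDD8 and is described next, and for Ube2t. Ube2t is the E2 of the Fanconi anemia pathway of DNA crosslink repair. The windows hold sequence elements, of which all share only the CCAAT box, while the 3 transcripts moved differently. The elements are the cell cycle genes homology region, or CHR (TTTGAA), and the CCAAT box (CCAAT), which occur together in promoters of many genes expressed late in the cell cycle. Each window runs from 250 bases before to 50 bases after the start of a RefSeq transcript (GRCm38.p6), 5′ to 3′ on the gene's strand, with every match to either element on either strand in capitals. The windows lie at chr2:164769679-164769978 (Ube2c), chr1:91250054-91250353 (Ube2f) and chr1:134962315-134962614 (Ube2t), all on the plus strand.
Ube2c: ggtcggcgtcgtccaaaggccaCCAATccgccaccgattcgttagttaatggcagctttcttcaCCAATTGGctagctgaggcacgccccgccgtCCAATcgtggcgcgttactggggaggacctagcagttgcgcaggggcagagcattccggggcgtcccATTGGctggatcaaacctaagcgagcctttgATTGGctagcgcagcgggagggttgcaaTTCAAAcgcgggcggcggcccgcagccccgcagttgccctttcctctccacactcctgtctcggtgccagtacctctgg
Ube2f: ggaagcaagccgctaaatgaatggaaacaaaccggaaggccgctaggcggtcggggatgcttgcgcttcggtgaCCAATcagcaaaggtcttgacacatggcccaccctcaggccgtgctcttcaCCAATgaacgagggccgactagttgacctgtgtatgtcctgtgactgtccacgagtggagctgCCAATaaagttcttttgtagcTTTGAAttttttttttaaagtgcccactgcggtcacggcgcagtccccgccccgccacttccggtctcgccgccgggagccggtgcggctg
Ube2t: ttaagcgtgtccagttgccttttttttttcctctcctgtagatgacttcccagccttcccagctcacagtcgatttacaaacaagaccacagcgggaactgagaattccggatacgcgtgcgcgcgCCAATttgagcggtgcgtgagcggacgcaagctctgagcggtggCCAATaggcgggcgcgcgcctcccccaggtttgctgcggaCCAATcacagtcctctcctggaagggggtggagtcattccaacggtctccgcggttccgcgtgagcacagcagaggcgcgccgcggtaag
The Ube2c window holds 1 CHR and 6 CCAAT matches, of which a neighbouring pair on opposite strands overlaps. In the Ube2f window shown there are 1 CHR and 3 CCAAT matches, while a second RefSeq window of Ube2f, at chr1:91250316-91250615, holds 0 of either. There are, in the Ube2t window, 3 CCAAT matches and 0 CHR.

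A CHR with at least 1 CCAAT match occurred in 2284 of 32851 RefSeq windows (6.95%) and 544 of the 11168 windows of genes in the table (4.87%). Of the 67 member windows 2 held the pair (2.99%), those of Ube2c and Ube2f. At least 3 CCAAT matches with a CHR, a cut equal to the Ube2f count, occurred in 179 (0.545%), 76 (0.681%) and the same 2. The stricter cut thus fits the windows shown, and no enrichment was tested. Among the 8808 genes of the table with a window, the CHR was in 1246 (14.1%) and the CCAAT box in 3817 (43.3%), beside 4 (7.14%) and 11 (19.6%) of the 56 members with a window; over all 32851 windows the shares were 17.9% and 37.4%. Searched the same way on both strands, an E2F core (TTCCCGC) was in 881 of the 8808 genes and 11 of the 56 members, and an E-box (CACGTG) in 1059 and 8. Ube2t itself measured 272, 258 and 265 normalized counts in the DMSO libraries and 223, 196 and 278 in the inhibitor libraries. These groups overlapped, since inhibitor library 3 was the highest of all 6, and the gene was not past the threshold (limma adjusted p = 0.232), though it was without that library (adjusted p = 0.0439). Of the 3 genes shown, Ube2c fell, Ube2f rose and Ube2t was not called. Whether the elements have a part in this was not tested.

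Among the E2 enzymes of ubiquitin-like proteins, the NEDD8 enzyme Ube2f rose. NEDD8 is attached mainly to cullins, the scaffolds of a large class of ubiquitin ligases, and Ube2f and Ube2m are its E2 enzymes. Ube2f measured 704, 756 and 666 in the DMSO libraries and 1088, 1182 and 1210 in the inhibitor libraries. All inhibitor libraries were higher, by 1.64-fold on average (log2 fold change 0.71 ± 0.09 SE, n = 3 per group, limma adjusted p = 5.61e-05). Ube2m measured 2011, 1866 and 1914 against 2129, 1877 and 1875, with overlapping groups (adjusted p = 0.858). The log2 ratio of Ube2f to Ube2m went from -1.45 ± 0.12 to -0.76 ± 0.18 (SD, n = 3 per group; exact permutation test, two-sided, p = 0.100, 0.125 adjusted over the 10 ratios).

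Other genes of the NEDD8 and cullin relay also rose. Rnf7, the RING subunit that works with Ube2f and Cul5, measured 2130, 2201 and 1948 in the DMSO libraries and 3149, 3756 and 3749 in the inhibitor libraries (1.70-fold, limma adjusted p = 5.73e-05). Rbx1, the RING subunit that works with Ube2m and the other cullins, measured 1296, 1295 and 1148 against 1634, 1787 and 1713 (1.37-fold, adjusted p = 8.93e-04). Uba3, the catalytic subunit of the NEDD8 E1, rose from a mean of 1192 to 1607 (adjusted p = 0.00130), while its partner Nae1 stood at 628 and 611 (adjusted p = 0.765). Nedd8 itself had means of 1602 and 1847 and narrowly missed the threshold (adjusted p = 0.0517). Of 9 listed cullins and their partner subunits 5 rose (55.6%) and 0 fell, beside 23.6% and 22.9% of all genes. Those that rose were Rnf7, Rbx1, Cul2 (1197 to 1504), Cul4b and Skp1a (3258 to 4070), which is an adaptor and not a cullin or RING subunit. The calls of Skp1a and Cul4b rest on single libraries: Skp1a was not called once DMSO library 2, DMSO library 3 or inhibitor library 2 was left out, nor was Cul4b once DMSO library 1, DMSO library 3, inhibitor library 1 or inhibitor library 2 was. Cul5, at 1745 and 1997, was not past the threshold (adjusted p = 0.107).

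Senp1, a protease that takes SUMO off its targets, measured 1670, 1627 and 1739 in the DMSO libraries and 1124, 1050 and 1087 in the inhibitor libraries. All inhibitor libraries were lower (1.54-fold, limma adjusted p = 5.85e-05). Of 7 SENP genes 0 rose and 2 fell, Senp1 and Senp7 (487 to 370).

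Usp18 showed the largest rise of any member past the threshold, and its DMSO libraries differed widely among themselves. Usp18 removes ISG15, an interferon-induced modifier, and dampens the interferon receptor. It measured 139, 348 and 136 in DMSO libraries 1 to 3 and 396, 481 and 429 in inhibitor libraries 1 to 3. The groups did not overlap, although DMSO library 2 came close to the lowest inhibitor library. The rise was 2.09-fold (log2 fold change 1.20 ± 0.28 SE, limma adjusted p = 0.00420). Without DMSO library 2 it was 3.16-fold (limma adjusted p = 1.20e-07).

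The other genes of the ISG15 relay were not called with all 6 libraries, and DMSO library 2 was the highest of all 6 libraries for Isg15 and Ube2l6. Isg15 measured 9.78, 44.4 and 14.7 in the DMSO libraries and 19.4, 30.8 and 40.9 in the inhibitor libraries. The groups overlapped, and the gene was past the threshold only without that library (limma adjusted p = 0.311 with it and 0.0140 without it). Ube2l6, the E2 of ISG15, measured 35.1, 64.6 and 38.3 against 29.6, 35.0 and 32.3. Its values did not overlap, but they were low in all libraries and the difference was not past the threshold with or without DMSO library 2 (adjusted p = 0.173 and 0.587). Uba7, the E1 of ISG15, measured 1110, 1184 and 1261 against 928, 1026 and 1592, with inhibitor library 3 the highest and inhibitor library 1 the lowest (adjusted p = 0.844; 0.0339, lower, without inhibitor library 3). Tnfaip3, a deubiquitinase of the OTU family that restrains NF-kB signalling, also stood highest among the DMSO libraries in library 2. It measured 211, 426 and 242 against 701, 705 and 773, without overlap (2.48-fold, adjusted p = 2.17e-04).

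**Figure D2:**
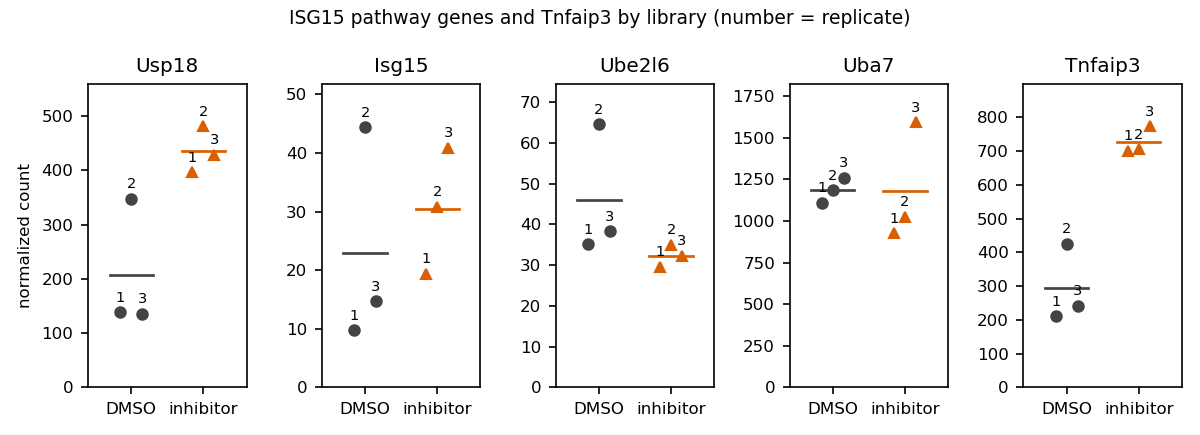
Normalized counts of Usp18, Isg15, Ube2l6, Uba7 and Tnfaip3 in each of the 6 libraries, numbered by replicate, with group means as lines; each panel has its own vertical axis from 0. DMSO library 2 is the highest DMSO library for Usp18 (348), Isg15 (44.4), Ube2l6 (64.6) and Tnfaip3 (426).

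Of the genes behind the ubiquitin chains of DNA damage tolerance and inflammatory signalling, Ube2n and Ube2v2 rose and Ube2v1 was not called. Ube2n is the catalytic E2, and Ube2v1 and Ube2v2 are its inactive E2-like partners that orient the acceptor ubiquitin. Ube2n measured 1677, 1439 and 1553 in the DMSO libraries and 2186, 2257 and 2195 in the inhibitor libraries. The inhibitor libraries were all higher and close to each other (1.42-fold, log2 fold change 0.51 ± 0.08 SE, limma adjusted p = 3.85e-04). Ube2v2 measured 854, 906 and 741 against 986, 1275 and 1381, with inhibitor library 1 only a little above the highest DMSO library (1.46-fold, adjusted p = 0.00430). Ube2v1 measured 1600, 1455 and 1491 against 1834, 1542 and 1532, with overlap (adjusted p = 0.356). Of its exon bases 61.5% are shared with the annotated gene Gm20431 on the same strand, so its counts, and ratios to it, are uncertain. The ratio of Ube2v2 to Ube2n did not move beyond its spread: its log2 mean was -0.90 ± 0.21 in the DMSO libraries and -0.88 ± 0.24 in the inhibitor libraries (SD, n = 3 per group; exact permutation test, p = 1). The ratio of Ube2v2 to Ube2v1 was 0.43 higher on the log2 scale, with overlapping groups (exact permutation test, p = 0.200, 0.222 adjusted).

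Ube2b, one of the Rad6 enzymes that ubiquitinate PCNA and histone H2B, measured 1109, 1127 and 1061 in the DMSO libraries and 1275, 1551 and 1509 in the inhibitor libraries (1.31-fold, limma adjusted p = 0.00429). Its near twin Ube2a measured 1473, 1449 and 1414 against 1388, 1559 and 1476. Ube2b was higher in every inhibitor library, whereas Ube2a overlapped (adjusted p = 0.796). The log2 ratio of Ube2b to Ube2a moved from -0.40 ± 0.03 to -0.03 ± 0.08 (SD, n = 3 per group; exact permutation test, p = 0.100).

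The E2 enzymes that extend degradation chains, on cullin ligases or at the endoplasmic reticulum, split. Ube2g2, which works in degradation of misfolded proteins at the endoplasmic reticulum, measured 885, 899 and 853 in the DMSO libraries and 1169, 1099 and 1132 in the inhibitor libraries (1.29-fold higher, limma adjusted p = 0.00243). Ube2g1, a related enzyme that extends chains on substrates of cullin ligases, measured 1153, 1173 and 1123 against 864, 901 and 721 (1.39-fold lower, adjusted p = 0.00164). Neither gene's groups overlapped, and the changes were in opposite directions. Their log2 ratio (Ube2g2 over Ube2g1) went from -0.39 ± 0.01 to 0.46 ± 0.18 (SD, n = 3 per group). The exact permutation test gave p = 0.100, which was fixed in advance, since both genes' groups already lay apart in opposite directions.

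Ube2j2, a membrane-anchored E2 of the endoplasmic reticulum, measured 39.1, 54.9 and 66.8 against 91.9, 93.7 and 91.5 (1.72-fold, limma adjusted p = 0.00678). The inhibitor libraries were all higher and nearly equal. Its relative Ube2j1 was not called, at 1536 ± 185 and 1528 ± 98.4 (SD, n = 3 per group; adjusted p = 0.980). Ube2k (adjusted p = 0.141) and Ube2r2 (adjusted p = 0.257) were not called either. Cdc34, the chain-building E2 of SCF ligases, carries no UBE2 symbol and rose. It measured 1490, 1346 and 1316 against 2524, 2643 and 2409 (1.83-fold, limma adjusted p = 8.74e-06). Among the 8 E2 or E2-like genes with other names 3 rose and 1 fell. Tsg101, an inactive E2-like subunit of the endosomal sorting machinery, rose from 927 to 1112, but was not called once DMSO library 1, DMSO library 3 or inhibitor library 2 was left out. Aktip rose from 170 to 225, a call that leaving out DMSO library 1, DMSO library 3, inhibitor library 2 or inhibitor library 3 ended. Uevld fell from 373 to 214 (limma adjusted p = 2.15e-04).

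**Figure D3:**
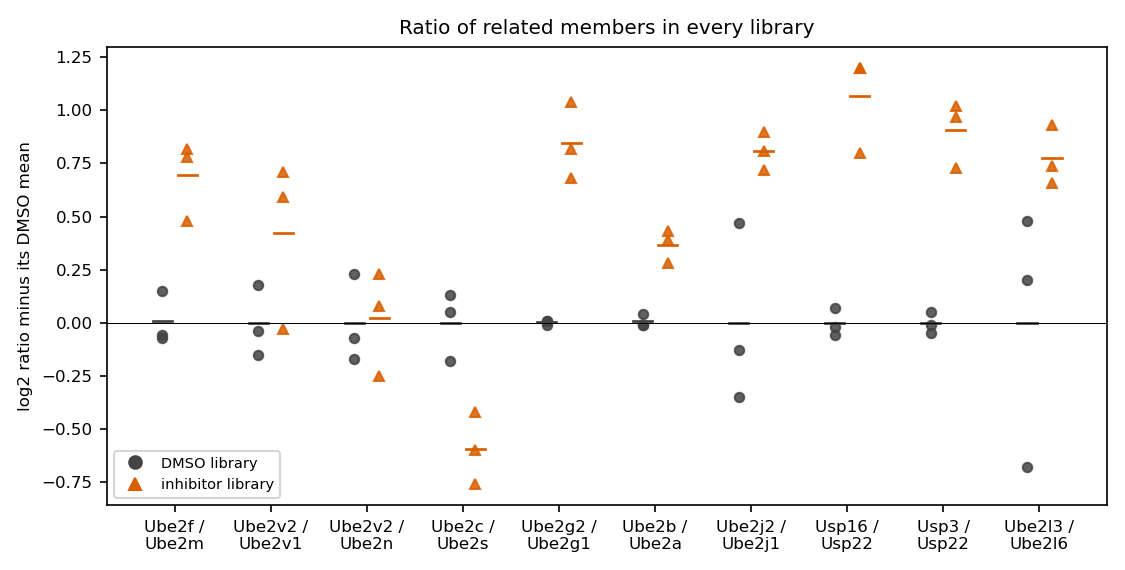
Log2 ratio of 10 pairs of related members in each library, with the pair's DMSO mean set to 0 and group means as lines. Groups do not overlap for 8 pairs, and overlap for Ube2v2 over Ube2v1 and Ube2v2 over Ube2n. For Ube2g2 over Ube2g1, Usp16 over Usp22, Usp3 over Usp22 and Ube2l3 over Ube2l6 each gene's groups already lie apart in opposite directions. Those ratios had to separate.

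Broadly acting E2 enzymes of the UBE2D and UBE2E families, which start chains with many ligases, rose in 3 of 5 cases and fell in 0. Over all genes 23.6% rose and 22.9% fell. Ube2d3 measured 6058, 6550 and 5875 in the DMSO libraries and 7554, 8587 and 8031 in the inhibitor libraries, without overlap (1.31-fold, limma adjusted p = 0.00418). Ube2d2a (1.21-fold, adjusted p = 0.0154) and Ube2e3 (1.25-fold, adjusted p = 0.0169) rose too. Those calls rest on single libraries: leaving out DMSO library 3 or inhibitor library 2 ended that of Ube2d2a, and leaving out DMSO library 1, DMSO library 3, inhibitor library 1 or inhibitor library 2 ended that of Ube2e3. Ube2d1 went the other way, at 163, 171 and 177 against 157, 147 and 151, without overlap but not past the threshold (limma adjusted p = 0.276). Ube2e1 was higher without overlap and not called either (adjusted p = 0.0537). Ube2l3, an E2 that serves HECT and RBR ligases such as parkin, measured 2594, 2109 and 2323 against 3012, 2928 and 2872, without overlap (1.25-fold, adjusted p = 0.00935). Ube2l3 was the 1 gene called among 7 ubiquitin E2 genes outside the groups above. Of its exon bases 28.6% lie under Ydjc on the other strand.

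Some of these E2 counts carry uncertainty from copies in the genome. For 12 of 31 UBE2 genes a processed pseudogene matched the transcript at 95% identity or more over at least 200 bases, and 7 of the 10 that rose are among them (Ube2d2a, Ube2d3, Ube2f, Ube2j2, Ube2l3, Ube2n and Ube2v2). Of the 42 USP genes, 2 have such a copy, Usp1 and Usp9x. For Ube2n and Ube2v2 a pseudogene was identical over 459 and 438 bases. How reads that fit both places were counted is not given in the sources used here, and its part in these results was not tested. Of the 12 UBE2 genes with such a copy 7 rose and 0 fell. Of the 19 without one 3 rose and 3 fell, beside 23.6% and 22.9% of all genes.

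**Figure D4:**
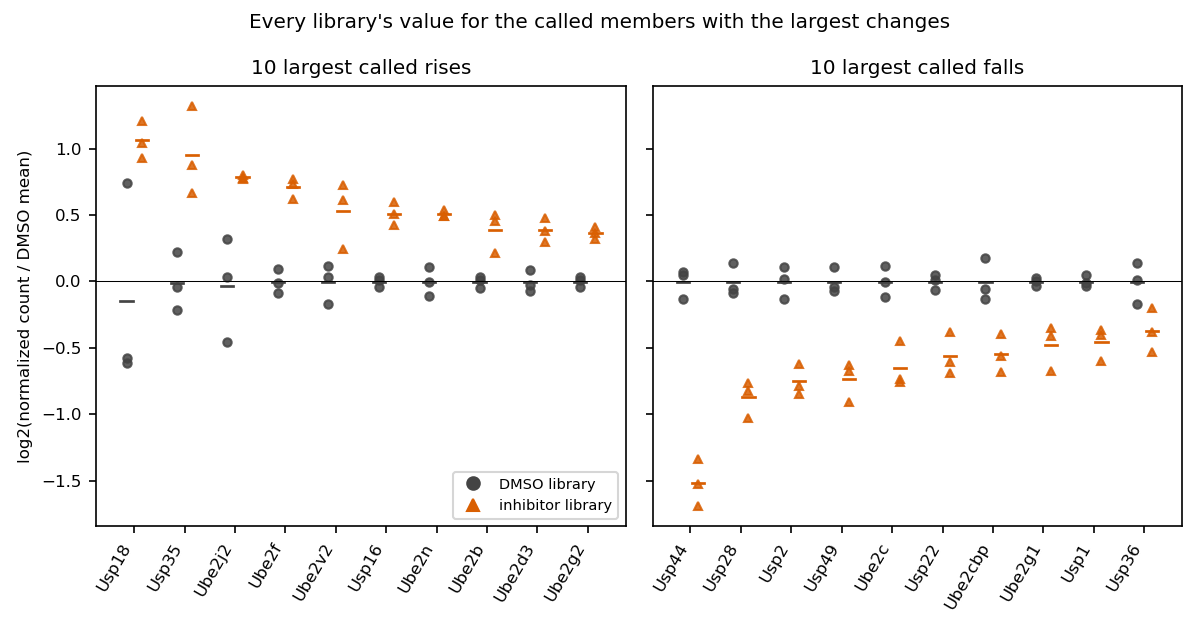
Every library's log2 normalized count relative to the DMSO mean, for the 10 largest rises (left) and the 10 largest falls (right) among called members whose groups do not overlap, with group means as short lines. The DMSO libraries are most spread for Usp18 (136 to 348 normalized counts), and Usp44 lies lowest with the inhibitor.

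Proteases that act on histones or in chromatin changed in both directions: of the 8 measured, 2 rose, 4 fell and 2 were not called. Usp16 and Usp3, which remove ubiquitin from histone H2A among other substrates, both rose. Usp16 measured 979, 995 and 942 in the DMSO libraries and 1304, 1472 and 1385 in the inhibitor libraries (1.43-fold, log2 fold change 0.51 ± 0.08 SE, limma adjusted p = 3.55e-04). Usp3 measured 1292, 1306 and 1304 against 1662, 1674 and 1636 (1.27-fold, adjusted p = 0.00220). Neither gene's groups overlapped, and the spread within each Usp3 group was small.

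Usp44, Usp49 and Usp22, which remove ubiquitin from histone H2B among other substrates, fell. Whether the direction goes with the histone acted on was not tested. Usp44, which also restrains the activation of the anaphase-promoting complex, showed the largest fall of all members. It measured 149, 132 and 152 in the DMSO libraries and 50.1, 44.7 and 57.0 in the inhibitor libraries, 2.85-fold lower (log2 fold change -1.50 ± 0.16 SE, n = 3 per group, limma adjusted p = 2.36e-05). Usp49 measured 316, 310 and 352 against 174, 204 and 211 (1.66-fold lower, adjusted p = 4.15e-04), and 51.2% of its exon bases are shared with the annotated gene Gm20517 on the same strand, so its counts are uncertain. Usp22, the protease of the SAGA coactivator, measured 1565, 1696 and 1649 against 1256, 1074 and 1014 (1.47-fold lower, adjusted p = 4.99e-04). For these 3 genes each inhibitor library lay below each DMSO library. Usp27x, a relative of Usp22, stood at 4.89, 6.46 and 2.95 against 10.2, 11.2 and 10.8, and was past the threshold only without DMSO library 2 (adjusted p = 0.0581 with it and 0.0428 without it). It rests on 17 reads in the DMSO group and 28 in the inhibitor group, with 10 in its highest library, which is the lowest maximum of any gene in the table, so it passed the table's floor only through the inhibitor libraries.

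The log2 ratio of Usp16 to Usp22 went from -0.75 ± 0.07 to 0.32 ± 0.23, and that of Usp3 to Usp22 from -0.33 ± 0.05 to 0.58 ± 0.15 (SD, n = 3 per group). Exact permutation tests gave p = 0.100 each, 0.125 adjusted over the 10 ratios. Usp16 and Usp3 rose and Usp22 fell, each without overlap, so the ratios had to separate and their p was fixed in advance. Among the partners of Usp22 in SAGA, Atxn7l3 fell from 1909 to 1547 (limma adjusted p = 0.0104; 0.0515 without inhibitor library 2), while Eny2 was not called (747 and 674, adjusted p = 0.316). Usp36, a nucleolar protease listed with this group, measured 881, 777 and 959 against 669, 603 and 758 (1.29-fold lower, adjusted p = 0.0158). The inhibitor libraries were lower without overlap, but leaving out DMSO library 3 or inhibitor library 2 ended the call. Usp21, an H2A protease, was not called (adjusted p = 0.330).

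Of 5 proteases of the DNA damage response, replication and the cell cycle, 3 fell and 0 rose, beside 22.9% and 23.6% of all genes, and 1 of the 3 calls (Usp37) rests on single libraries. Usp28, which stabilizes MYC and binds the damage and mitotic-delay factor 53BP1, measured 465, 476 and 544 in the DMSO libraries and 243, 292 and 280 in the inhibitor libraries. No library of one group reached the other (1.82-fold lower, log2 fold change -0.86 ± 0.11 SE, limma adjusted p = 8.13e-05). Usp1, which removes ubiquitin from PCNA and FANCD2, measured 4192, 4015 and 3966 against 3155, 3074 and 2677, again without overlap (1.37-fold lower, adjusted p = 0.00120). Its activating subunit Wdr48 fell as well, from 1583, 1538 and 1573 to 1299, 1141 and 1106 (1.32-fold lower, adjusted p = 0.00207). The other proteases that need Wdr48, Usp12 and Usp46, had non-overlapping lower values that were not past the threshold (adjusted p = 0.225 and 0.0971). Usp37, which acts on cyclin A, was 1.20-fold lower (adjusted p = 0.0231), a call that ended on leaving out DMSO library 1, DMSO library 3, inhibitor library 2 or inhibitor library 3. Usp47 (adjusted p = 0.967) and Usp11 (adjusted p = 0.120) were not called.

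Proteases of membranes, endosomes and receptor trafficking mostly stayed below the threshold, with 2 of 9 lower (22.2%, beside 22.9% of all genes) and 0 higher. Usp2, a protease of cyclin D1 and of clock proteins, measured 154, 182 and 171 against 110, 93.7 and 97.9, without overlap (1.68-fold lower, limma adjusted p = 0.00108). Usp9x, an X-linked protease of MCL1 and many trafficking proteins, measured 6473, 6833 and 7627 against 5813, 5806 and 4758 (1.28-fold lower, adjusted p = 0.0149). DMSO library 3 was the highest and inhibitor library 3 the lowest, and with DMSO library 3 left out the adjusted p was 0.0716. Usp8, Usp10, Usp19, Usp20, Usp30, Usp32 and Usp33 were not called.

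At the proteasome, Usp14, which trims chains from bound substrates, measured 3004, 2953 and 2952 in the DMSO libraries and 3384, 3317 and 2686 in the inhibitor libraries. Inhibitor library 3 lay below all DMSO libraries and the other inhibitor libraries above them (limma adjusted p = 0.587). Usp5, which recycles free chains, was not called either (adjusted p = 0.303). Usp39, a splicing factor of the USP fold without protease activity, measured 1134, 1037 and 1030 against 1058, 875 and 844. Inhibitor library 1 overlapped the DMSO range (adjusted p = 0.102), and the gene was past the threshold only without that library (adjusted p = 0.0173).

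Of the remaining proteases, Usp45, which acts on the repair nuclease subunit ERCC1, rose by 1.26-fold (limma adjusted p = 0.00503). Usp35 measured 16.3, 14.5 and 19.6 against 26.6, 30.8 and 42.0 (1.97-fold, adjusted p = 0.0169), on 58 and 87 reads per group. Inhibitor library 3 was the highest, and with it left out the adjusted p was 0.0709. Usp15 (1.22-fold lower, adjusted p = 0.0145) and Usp25 (1.28-fold lower, adjusted p = 0.00853), both of which act in immune signalling, fell, as did Usp24 (1.24-fold, adjusted p = 0.00983) and Usp42 (1.21-fold, adjusted p = 0.0449). Of these, Usp15 was not called once DMSO library 3 or inhibitor library 2 was left out, Usp24 once DMSO library 3 was, and Usp42 once any 1 DMSO library or inhibitor library 2 was. Of the pair taken by symbol only, Ube2cbp measured 121, 97.7 and 103 against 81.7, 72.7 and 66.7 (1.45-fold lower, adjusted p = 0.0178), a call that ended on leaving out DMSO library 1, inhibitor library 2 or inhibitor library 3. Usp6nl was not called (adjusted p = 0.145).

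Around both families, the rest of the ubiquitin system showed no common direction. Of 106 other listed pathway genes 23 rose (21.7%) and 19 fell (17.9%), with a median log2 fold change of -0.00. The main ubiquitin E1, Uba1, measured 6715, 5828 and 6076 against 6042, 5110 and 4608, with overlap (limma adjusted p = 0.0798; 0.0144 without inhibitor library 1). Of 10 E1 genes 2 rose, Uba3 among them, and 0 fell. Ufm1, another ubiquitin-like modifier, rose (733 to 1049, adjusted p = 8.18e-04). Of the ubiquitin genes, Rps27a, a ribosomal fusion, rose by 1.35-fold (adjusted p = 0.0188), a call that ended on leaving out DMSO library 3, inhibitor library 2 or inhibitor library 3. Ubb was not called (adjusted p = 0.911).

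Among 33 deubiquitinases that are not USP genes 6 rose and 9 fell, shares of 18.2% and 27.3%. Fam63a (Mindy1) measured 318, 327 and 314 against 790, 757 and 802 (2.45-fold higher, limma adjusted p = 6.82e-07), while its relative Fam63b (Mindy2) fell from 1360 to 1044 (adjusted p = 0.00191). Mpnd, a JAMM-domain protein, measured 810, 798 and 791 against 313, 263 and 311 (2.71-fold lower, adjusted p = 7.49e-07). Josd1, a Josephin protease, fell from 1657 to 1132 (adjusted p = 2.89e-04). None of these genes' groups overlapped.

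**Figure D5:**
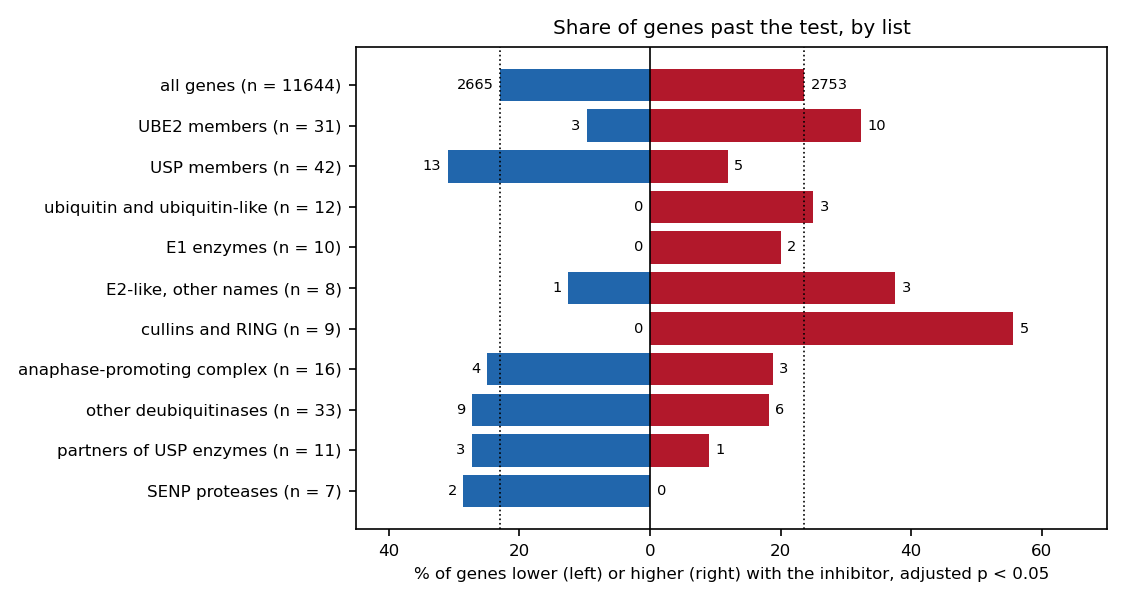
Share of each list's genes that rose (right) or fell (left) with the inhibitor, in percent, with counts at the bar ends and dotted lines at the shares over all 11644 genes (23.6% and 22.9%). The UBE2 bar is longer to the right (10 against 3) and the USP bar longer to the left (13 against 5). The cullin and RING bar includes the adaptor Skp1a.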

How the data were processed

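RNA from 6 libraries was compared, 3 with the inhibitor and 3 with DMSO. Per the submitters' processing notes, the build was mm10 and the tools were DESeq 1.16.0, HTSeq 0.6.0, TopHat2 2.0.10 and CASAVA 1.8.2, with no roles given. The authors deposited a signal per gene, counts divided by size factors. Every value came out as a whole read (100% within 1e-06) after multiplying by size factors of 0.715 to 1.24. The lowest maximum of any of the 11644 genes was 10 reads.

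The main test was limma 3.58.1 (R 4.3.3, limma-trend) on log2(normalized count + 1), two-sided, Benjamini-Hochberg adjusted over all genes at 0.05, with 4 residual degrees of freedom and no covariate. Fold changes are ratios of group means, and log2 fold changes are on that log2 scale. The test was also run on simulated counts in which far fewer genes changed than were called here. That run does not check it for changes this broad. edgeR 4.0.16 and DESeq2 1.42.0 ran on the recovered reads as alternatives, beside other scalings, pseudocounts of 0.5 and 5, a minimum mean of 100, a replicate block and leaving out each library. An exon-length correction was chosen after seeing the data. Gene models came from GENCODE release 21 for mouse (11564 genes matched) and copies from BLAST 2.17.0. RefSeq promoter windows were found for 56 of 73 members. The members and lists were chosen with earlier results of these data known. Named were the 10 largest non-overlapping rises and falls among called members, preset members and partners, and up to 4 genes per list with the smallest adjusted p, with further members added where a group needed them. Some genes that match the symbol rule or the lists are not reported here. The kit was stranded per the labels' protocols; the strand setting of the counting is not given in the sources used here.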

Additional observations from a re-analysis of the deposited data

How the results depend on the processing

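Of the 31 members called, 21 kept their call and direction in each of the 15 alternatives that tested them, and 10 lost it in at least 1. No member reversed. Leaving out 1 library at a time gave 7 to 15 fallen USP genes, a UBE2 median log2 fold change of 0.08 to 0.16 and a USP median of -0.16 to -0.10. With the exon-length trend removed the USP median was -0.09. Under edgeR the counts were 10 higher and 3 lower for UBE2 genes and 5 and 14 for USP genes. Under DESeq2 they were 10 and 3, and 5 and 12. The replicate numbers were not shown to pair the libraries: deviations of same-numbered libraries correlated at 0.165, 0.0499 and 0.205, although each library correlated best with its own number, a hint from the data only. With the replicate block 11 UBE2 genes rose and 3 fell, and 5 USP genes rose and 16 fell, with no call lost. In that block fit 3016 of all genes rose and 2916 fell. The scarcest members are limited by depth: Usp27x and Usp35 rest on 17 and 58 reads in the DMSO group.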
